A study of Mus musculus with 80 samples.

Results

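Pdzrn4, Coch, Trpm1, Cemip, Alk, Lrfn2, Tll1, Lgals3 and Peg10 are 9 autosomal mouse genes whose chromatin-associated RNA was lower with doxycycline (Dox) than without it in all 20 matched pairs of untreated and Dox-treated libraries. They were chosen by these measured changes within pairs, so the fall from untreated to Dox is given below as a description. The deposited tables held 22556 genes, of which 12230 autosomal genes averaged at least 1 CPM (counts of reads per 1000000 in the library) in every table. Among these, 90 genes (0.736%) were lower with Dox in all 20 pairs, and the 9 members stood within the first 15 of them by mean fall. All 9 members passed the filter of a mean of 1 CPM in all 6 tables, with 23 reads or more in every library.

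Chromatin-associated RNA sequencing reads the RNA that stays with chromatin after cell fractionation and is rich in unspliced transcripts. It was done in 80 libraries of mouse embryonic stem cells (mESCs) of a 129S by Castaneus hybrid background, grown with LIF on inactivated mouse fibroblast feeders. In every line Dox switches on Xist, the RNA that silences the X chromosome, from one inducible allele, and every line carries a degron tag by which the compound dTAG-13 (dTAG) removes the tagged protein. Libraries held between 8583487 and 34392078 reads, and no pair of replicates held identical values.

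Each line was sampled untreated, after 26 h of dTAG, after 24 h of Dox, and after 2 h of dTAG followed by 24 h of both agents (dTAG+Dox). The METTL3 line, in which the writer of the RNA mark m6A is tagged, had 4 clones, with the tag at the N terminus in G4 and H1 and at the C terminus in C3 and H5. The ZCCHC8 line, tagged in a subunit of the nuclear exosome targeting (NEXT) complex, had clones Z4F and Z12H. The YTHDC1 line, tagged in the nuclear reader of m6A, had clones Y9F and Y12H and was sampled in 2 experiments. The ZFC3H1 line, tagged in a subunit of the PAXT complex, had clones 8H and 11A. In YTHDC1 and ZCCHC8 cells the inducible Xist lies on the 129S allele, and in the other lines on the Castaneus allele.

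A further 4 lines were made from METTL3 clone H5 by placing a GFP-METTL3 transgene at the Rosa26 locus. The transgene is wild type (WT) or carries D395A, which removes catalytic activity, so that the METTL3 left in D395A cells after dTAG is the inactive form. XX lines hold both X chromosomes, and XiO lines hold only the X with inducible Xist. Each of these 4 lines is 1 clone sampled in 2 experiments, and both YTHDC1 experiments used the same clones. The 2 YTHDC1 experiments are counted as 2 of the 9 lines below, each with the weight of 1 line in means over lines. The p-values below therefore measure the spread between these samples and not between independently made lines.

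The 9 genes do not form 1 pathway. Alk is a receptor tyrosine kinase of the developing nervous system, Trpm1 is a cation channel best known from retinal bipolar cells, and Lrfn2 is a synaptic adhesion protein. Coch encodes cochlin, a secreted matrix protein of the inner ear. Cemip is needed for the breakdown of hyaluronan, Tll1 is a tolloid-type protease that processes procollagens and chordin, and Lgals3 is galectin-3, a lectin that binds β-galactosides. Pdzrn4 encodes a protein with PDZ and RING finger domains, and Peg10 is a retrotransposon-derived gene expressed from the paternal allele and needed in the placenta.

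In mm10 the members lie on 7 chromosomes, each on an autosome. Coch spans chr12:51593341-51605773 on the plus strand, Cemip chr7:83932857-84086505 on the minus strand, Alk chr17:71868988-72604307 on the minus strand and Pdzrn4 chr15:92396810-92771819 on the plus strand. Trpm1 spans chr7:64153835-64269759 on the plus strand, Lrfn2 chr17:48932582-49097590 on the plus strand, Tll1 chr8:64014770-64205993 on the minus strand, Lgals3 chr14:47373860-47386167 on the plus strand and Peg10 chr6:4747306-4760516 on the plus strand. All are protein-coding. Their spans run from 12.3 kb for Lgals3 to 735.3 kb for Alk.

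Promoters of the 4 genes with the largest falls in the test reported below are shown, so that a reader can see what sequence lies at their starts. Each runs from 250 bases before to 50 bases after a listed start of transcription on GRCm38.p6, 5′ to 3′ on the gene's own strand. For Coch, Alk and Cemip this start matches the gene span given above. The RefSeq gene span of these genes begins further upstream, at 51593283, 72604702 and 84086693 in turn. The windows are Coch at chr12:51593091-51593390 (plus strand), Pdzrn4 at chr15:92396560-92396859 (plus strand, the first of its 2 listed starts), Alk at chr17:72604258-72604557 (minus strand) and Cemip at chr7:84086456-84086755 (minus strand). Capitals mark the TATA box letters TATAAA and the GC box letters GGGCGG on either strand.
Coch: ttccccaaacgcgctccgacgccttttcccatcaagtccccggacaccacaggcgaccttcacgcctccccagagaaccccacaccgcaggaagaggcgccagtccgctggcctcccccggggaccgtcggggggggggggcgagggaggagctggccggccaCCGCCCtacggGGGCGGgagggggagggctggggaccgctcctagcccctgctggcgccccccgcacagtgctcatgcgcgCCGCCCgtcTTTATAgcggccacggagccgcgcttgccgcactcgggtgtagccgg
Pdzrn4: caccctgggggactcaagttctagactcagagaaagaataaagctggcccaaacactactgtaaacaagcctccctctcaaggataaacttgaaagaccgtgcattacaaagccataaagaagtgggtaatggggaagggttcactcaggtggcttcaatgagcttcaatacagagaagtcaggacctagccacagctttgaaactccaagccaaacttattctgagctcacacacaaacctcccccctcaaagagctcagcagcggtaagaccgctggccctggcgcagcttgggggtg
Alk: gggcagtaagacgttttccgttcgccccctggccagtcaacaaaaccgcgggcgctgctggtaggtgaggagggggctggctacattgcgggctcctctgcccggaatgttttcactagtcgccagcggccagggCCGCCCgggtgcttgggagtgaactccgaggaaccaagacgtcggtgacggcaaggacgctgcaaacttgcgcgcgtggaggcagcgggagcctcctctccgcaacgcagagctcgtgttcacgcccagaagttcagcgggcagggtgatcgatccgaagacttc
Cemip: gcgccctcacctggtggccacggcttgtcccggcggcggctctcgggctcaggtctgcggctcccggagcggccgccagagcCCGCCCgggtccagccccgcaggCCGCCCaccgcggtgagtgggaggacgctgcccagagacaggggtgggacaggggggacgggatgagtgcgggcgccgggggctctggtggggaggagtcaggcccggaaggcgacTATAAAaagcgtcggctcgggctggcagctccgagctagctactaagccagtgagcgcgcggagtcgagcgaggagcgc

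Promoter windows were found for 7 of the 9 members, with no entry for Lrfn2 and Peg10. TATAAA was in the windows of Coch and Cemip, against 13.6% of all 32851 promoters, and GGGCGG in those of Alk, Cemip, Coch and Lgals3, against 35.7%. CCAAT was in windows of Lgals3, Tll1 and Trpm1, against 37.4% of all promoters. The Myc-type E-box CACGTG (7.15% of promoters) and the antioxidant response core TGACNNNGC (12.4%) were each found in Trpm1 alone among the members. The AP-1 letters TGANTCA (7.81%) and the cAMP response element TGACGTCA (1.79%) were in none of the member windows. All motifs were searched on both strands. None of these letters was shared by all members, and the Pdzrn4 windows held none of the 7 motifs. GC content was 73.7% in the windows of Coch and Cemip, 64.0% in Alk and 50.3% in the Pdzrn4 window shown, beside a median of 52.7% over all promoters.

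The members differed widely in level. Per kb of gene span, Peg10 was highest in untreated cells, with a mean over the 9 lines of 5.87 CPM per kb and a range over lines of 1.64 to 13.8. Lgals3 had 1.46 CPM per kb (0.756 to 4.15) and Coch 0.966 (0.528 to 1.89), and these ranges overlapped. Alk had 0.372 CPM per kb (0.0926 to 0.629). Trpm1 (0.172), Lrfn2 (0.129), Pdzrn4 (0.0872), Tll1 (0.0779) and Cemip (0.0721) had lower mean levels, and their ranges over lines overlapped each other. Levels across tables were normalised separately, so the order is a description only.

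**Figure D1:**
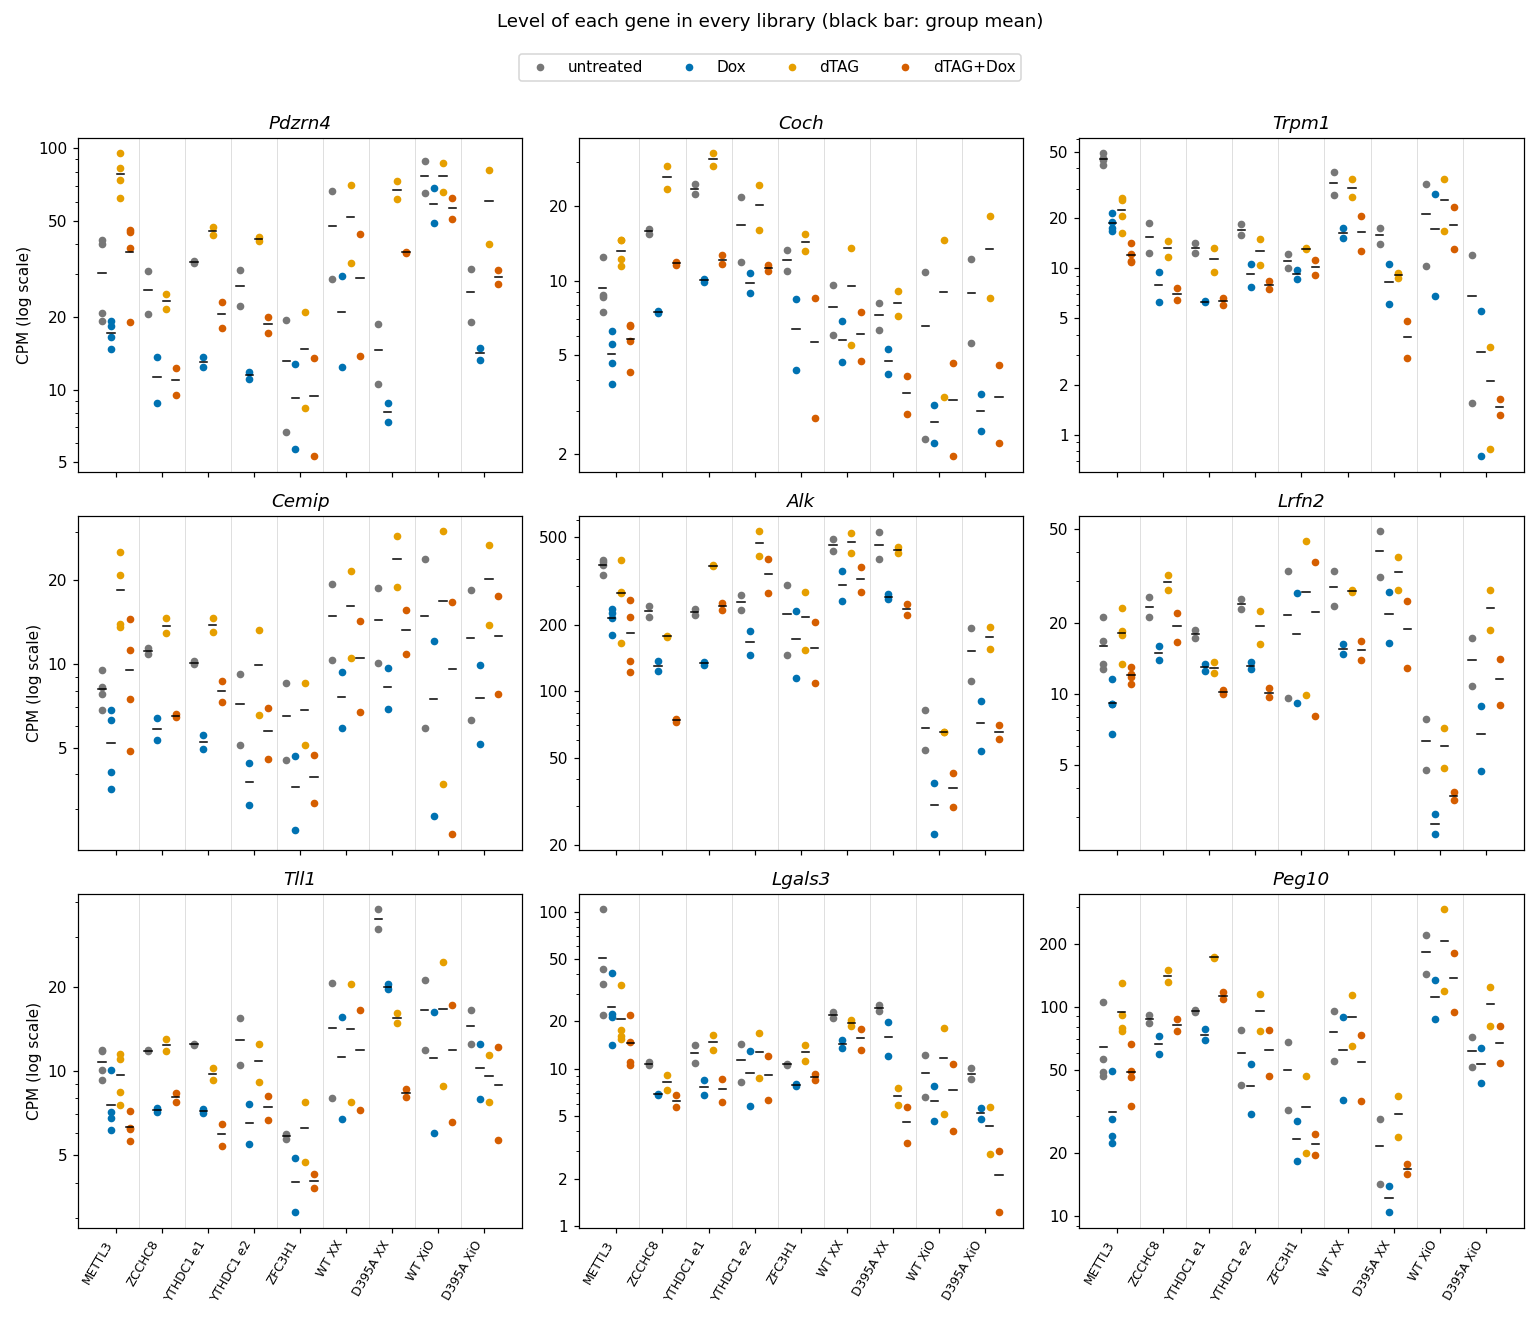
Levels of the 9 members in CPM (log axis) by line and treatment, with 1 point per library and short bars for group means. Within each line the Dox and dTAG+Dox points tend to sit below the untreated and dTAG points, while the level itself differs between lines, as for Alk, which is lowest in the WT XiO line.

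From untreated to Dox, the comparison that chose the genes, the mean change over the 9 lines on the scale log2(CPM + 1) ran from -0.86 for Pdzrn4 to -0.58 for Lgals3 and Peg10. The other means were -0.81 for Coch, -0.79 for Trpm1, -0.78 for Alk, -0.74 for Cemip, -0.71 for Lrfn2 and -0.59 for Tll1. A change of -0.86 on this scale leaves 55.2% of the starting CPM + 1, which is not the same share of the CPM itself. In bulk libraries, less RNA per cell and fewer cells that make the RNA cannot be told apart, and the addition of Dox and the induction of Xist cannot be told apart either.

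The line means of this change varied, which is a description, since differences between lines were not tested for this step. Alk, Trpm1 and Lrfn2 had their smallest mean change in the ZFC3H1 line, at -0.38, -0.25 and -0.19, whereas Peg10 had its largest there, at -1.001. The largest line means were -1.32 for Pdzrn4 in YTHDC1 experiment 1, -1.24 for Coch in D395A XiO, -1.24 for Trpm1 in METTL3, -1.15 for Alk in WT XiO and -0.89 for Cemip in WT XiO. Lgals3 was lowest relative to untreated in METTL3, at -0.88, and Tll1 in YTHDC1 experiment 2, at -0.88. Some of these means had a wide SE, such as 0.72 for Coch in D395A XiO and 0.35 for Alk in WT XiO. No line had the largest change for every gene.

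Some pairs only just met the rule. Cemip in METTL3 clone H1 differed by -0.00, with 6.84 CPM untreated and 6.82 CPM with Dox. Trpm1 in ZFC3H1 differed by -0.04 in its smallest pair, and Coch in WT XiO experiment 1 by -0.04. Just outside the rule, 130 autosomal genes were lower in 19 of the 20 pairs. Those with the largest mean falls were 1700007G11Rik, Fgf17, Neat1, Kirrel3, Jun and Dpp6, whose single exceptions were 0.11, 0.38, 0.45, 0.05, 0.16 and 0.13.

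**Figure D2:**
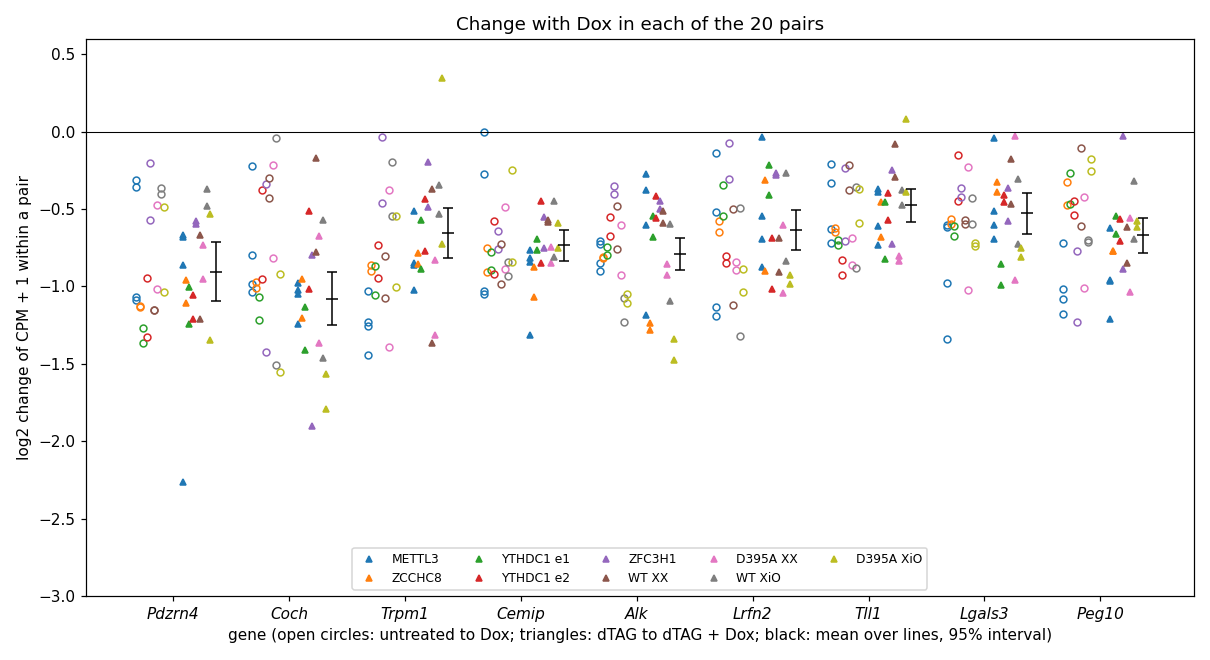
Log2 change of CPM + 1 for each member in each of the 20 pairs, coloured by line, with open circles for untreated to Dox, triangles for dTAG to dTAG+Dox, and black bars for the mean of the latter over lines with its 95% interval. Every circle is below 0 by the rule, and 178 of 180 triangles are below 0, the exceptions being Trpm1 and Tll1 in D395A XiO experiment 2.

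The libraries treated with dTAG played no part in choosing the genes, so the step from dTAG to dTAG+Dox shows whether the fall recurred. The mean over lines was fitted on these libraries alone. Fits of single lines, given further below, took their spread from all libraries fitted together, the untreated and Dox libraries included. All 9 members fell. Averaged over the 9 lines, Coch fell by 1.08 on the log2 scale (SE 0.081, adjusted p = 2.3e-08), which left 47.3% of its CPM + 1 after dTAG. Pdzrn4 fell by 0.90 (SE 0.090, adjusted p = 7.9e-07), Alk by 0.79 (SE 0.049, adjusted p = 2.0e-09) and Cemip by 0.73 (SE 0.047, adjusted p = 3.2e-09). Across all genes tested in this comparison, 16.5% of 13850 were called lower by limma with Benjamini-Hochberg adjustment, and 13.4% of the 13343 autosomal ones. The median change was -0.67 over the members and 0.02 over all genes tested.

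The remaining 5 members moved by less. Peg10 fell by 0.67 (SE 0.053, adjusted p = 5.0e-08), Trpm1 by 0.65 (SE 0.076, adjusted p = 4.9e-06) and Lrfn2 by 0.63 (SE 0.062, adjusted p = 5.6e-07). Lgals3 fell by 0.53 (SE 0.061, adjusted p = 4.4e-06) and Tll1 by 0.48 (SE 0.050, adjusted p = 1.2e-06). Counted from the most negative of the 13343 autosomal genes, Coch was at rank 1, Pdzrn4 at 4, Alk at 7, Cemip at 10, Peg10 at 16, Trpm1 at 21, Lrfn2 at 24, Lgals3 at 61 and Tll1 at 83.

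By pair, the 7 members other than Trpm1 and Tll1 were lower in 20 of 20 dTAG pairs, which held for 1.13% of autosomal genes with at least 1 CPM in every table. Trpm1 and Tll1 were lower in 19 of 20, and 2.87% of those genes were lower in at least 19. Both exceptions were in D395A XiO experiment 2, at 0.35 for Trpm1 and 0.08 for Tll1. Trpm1 was near the filter there, with 0.821 CPM after dTAG and 1.31 CPM after dTAG+Dox, while experiment 1 of the same clone had 3.38 and 1.64 CPM.

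Coch, at rank 1, had a lower fitted level with dTAG+Dox in every line. In the METTL3 clones G4, H1, C3 and H5 it stood at 12.2, 14.6, 14.6 and 11.5 CPM after dTAG, and at 5.71, 6.66, 6.57 and 4.28 CPM after dTAG+Dox. In ZCCHC8 cells the values were 23.4 and 28.9 CPM after dTAG against 11.6 and 11.95 CPM after dTAG+Dox, and in YTHDC1 experiment 1 they were 29.0 and 32.7 CPM against 12.7 and 11.7 CPM. The dTAG and dTAG+Dox libraries did not overlap in any of these 3 sets. In the WT XX line, with 5.49 and 13.5 CPM after dTAG and 4.76 and 7.48 CPM after dTAG+Dox, the experiments differed by more than the treatments and the groups overlapped.

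Alk, the member with the highest CPM, had line means from -1.41 to -0.47, and Coch from -1.68 to -0.47. In ZCCHC8 cells it went from 176.8 and 179.0 CPM after dTAG to 74.6 and 72.9 CPM after dTAG+Dox, a fall of 1.26 (SE 0.058, adjusted p = 1.7e-10). In YTHDC1 experiment 1, fitted in the same table, it went from 374.4 and 369.2 CPM to 233.7 and 252.9 CPM, a fall of 0.61 (SE 0.058, adjusted p = 2.5e-06). In ZFC3H1 cells clone 11A went from 281.9 to 206.4 CPM and clone 8H from 154.4 to 109.0 CPM, a fall of 0.47 (SE 0.076, adjusted p = 0.023). The clones of the ZFC3H1 line differed more from each other than either changed. In D395A XiO cells the log2 change was -1.41, with 196.1 and 155.7 CPM after dTAG and 70.0 and 60.8 CPM after dTAG+Dox.

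Pdzrn4 went in the METTL3 clones G4, H1, C3 and H5 from 82.5, 62.1, 95.6 and 74.2 CPM after dTAG to 44.9, 38.7, 19.1 and 45.9 CPM after dTAG+Dox. Clone C3 had the largest change of any member in any pair, at -2.27, against -0.67 to -0.86 in the other 3 clones, and the line mean of -1.12 had an adjusted p of 0.085. In YTHDC1 experiment 1 it went from 43.9 and 47.4 CPM to 18.0 and 23.2 CPM, a fall of 1.12 (SE 0.10, adjusted p = 2.1e-06). The groups did not overlap in either line. WT XiO had the smallest line mean, at -0.43, with 86.9 and 66.1 CPM after dTAG and 62.0 and 50.9 CPM after dTAG+Dox.

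Peg10 went in the METTL3 clones G4, H1, C3 and H5 from 91.5, 130.2, 76.9 and 79.2 CPM to 46.4, 66.5, 49.6 and 33.7 CPM, a fall of 0.94 (SE 0.12, adjusted p = 0.0035). In ZCCHC8 cells it went from 131.5 and 149.4 CPM to 76.8 and 87.3 CPM, a fall of 0.77 (SE 0.062, adjusted p = 1.4e-07). In both lines all dTAG libraries were above all dTAG+Dox libraries. ZFC3H1 had the smallest line mean, at -0.46, where clone 11A changed by -0.03 and clone 8H by -0.89.

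Trpm1 went in the METTL3 clones G4, H1, C3 and H5 from 26.5, 25.9, 16.3 and 20.6 CPM to 14.1, 12.2, 11.1 and 11.0 CPM, a fall of 0.81 (SE 0.13, adjusted p = 0.011). Lrfn2 went in YTHDC1 experiment 2 from 22.4 and 16.2 CPM to 10.5 and 9.70 CPM, a fall of 0.85 (SE 0.11, adjusted p = 1.9e-05). Both membrane proteins were lower in every one of these pairs, with no overlap between the groups. In ZFC3H1 clone 8H, where Lrfn2 was highest among the dTAG libraries, it stood at 44.3 CPM after dTAG and 36.3 CPM after dTAG+Dox.

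The other secreted or matrix proteins changed by less than Coch in the mean. Cemip went in ZCCHC8 cells from 14.6 and 12.9 CPM to 6.42 and 6.59 CPM, a fall of 0.97 (SE 0.11, adjusted p = 1.0e-05). Lgals3 went in YTHDC1 experiment 1 from 13.2 and 16.4 CPM to 6.14 and 8.63 CPM, a fall of 0.92 (SE 0.11, adjusted p = 1.9e-05). Tll1 went in the same libraries from 10.3 and 9.27 CPM to 5.39 and 6.48 CPM, a fall of 0.64 (SE 0.11, adjusted p = 0.00086). In none of these 3 did the groups overlap. In WT XX the 2 experiments lay further apart than the treatments for Tll1, with 7.75 and 20.4 CPM after dTAG and 7.27 and 16.5 CPM after dTAG+Dox.

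A test over all 9 line means did not call a difference in the size of the fall for any member, where 2.1% of all genes were called. Alk came nearest, with an adjusted p of 0.088 and an unadjusted p of 0.0025. Without the METTL3 line the adjusted p of Alk was 8.2e-05, and the share of all genes called there was not counted. No result of this test was kept for fits without any other line. At an unadjusted p under 0.05, Alk was also the only member to pass.

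Line by line, the fitted change was below 0 for all 9 members in each of the 9 lines, but the number that passed the test varied with the line. Each of these tests took its spread also from the untreated and Dox libraries, so the calls are not independent of the choice. All 9 were called lower in ZCCHC8 cells (background 10.2% of genes) and in YTHDC1 experiment 2 (4.96%), and 8 of 9 in YTHDC1 experiment 1 (6.49%), where Lrfn2 changed by -0.31 with an adjusted p of 0.13. In METTL3 cells 3 of 9 were called (1.27%), namely Coch, Trpm1 and Peg10. In ZFC3H1 cells Alk was called (0.805%). Leaving out METTL3 clone G4 or H5 left 0 members called in that line and leaving out C3 left 1.

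The 4 transgene lines had 2 libraries a group, and libraries of one experiment came from one batch of cells. Without a block for experiment no member was called in them. The background was 0.00748% in WT XX, 0.801% in D395A XX, 1.06% in WT XiO and 1.33% in D395A XiO. At an unadjusted p under 0.05 by limma, 3 members passed in WT XX, 4 in D395A XX, 1 in WT XiO and 4 in D395A XiO. By edgeR on recovered reads, 1 member was called in D395A XX and 0 in the other 3. Shares of all genes were not counted for the unadjusted and edgeR figures. With experiment as a block, 6 members were called lower in WT XX (background 2.88%), 8 in D395A XX (5.37%), 3 in WT XiO (6.06%) and 6 in D395A XiO (7.61%). Alk and Peg10 were called in all 4 lines under the block, with Alk at -0.55, -0.89, -0.85 and -1.41. Lgals3 was called in none of them under the block.

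The Dox step with and without dTAG can be set side by side. Pdzrn4 changed by -0.86 without dTAG and -0.90 with it, Alk by -0.78 and -0.79, and Cemip by -0.74 and -0.73. Coch changed by -0.81 and -1.08, and Trpm1 by -0.79 and -0.65. Because the untreated and Dox libraries chose the genes, the difference of the 2 steps is given without a test. Within lines it ran from -0.50 for Coch in D395A XX (SE 0.52) to 0.58 for Trpm1 in D395A XiO (SE 1.3). The 6 combinations of gene and line with the largest difference relative to its SE are listed as a description and not as calls. These were Alk in ZCCHC8 (-0.44, SE 0.082), Peg10 in ZCCHC8 (-0.37, SE 0.088), YTHDC1 experiment 1 (-0.24, SE 0.088) and ZFC3H1 (0.54, SE 0.25), Trpm1 in METTL3 (0.43, SE 0.18) and Tll1 in YTHDC1 experiment 2 (0.40, SE 0.16).

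Whether dTAG itself changed the level was asked with the mean of the dTAG effect without and with Dox. This measure takes no difference between untreated and Dox libraries. Its values and spread still draw on those libraries, which chose the genes, so its p-values are not independent of the choice. This holds for all p-values of this measure below, those of differences between lines included. The measure and its test were chosen after the data had been seen, where the plan gave dTAG changes as a description. The answer differed between genes and lines. In METTL3 cells 4 members rose and 2 fell, in ZCCHC8 cells 4 rose and 2 fell, and in YTHDC1 cells 5 rose and 2 fell in experiment 1, and 4 rose and 2 fell in experiment 2. The shares of all genes called higher and lower were 35.1% and 8.69% in METTL3, 29.4% and 24.1% in ZCCHC8, 18.6% and 14.3% in YTHDC1 experiment 1 and 15.9% and 15.8% in YTHDC1 experiment 2.

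With median-ratio scaling the balance in METTL3 turned to 3 higher (Pdzrn4, Cemip and Peg10) and 4 lower (Lgals3, Trpm1, Alk and Tll1), with Coch no longer called. The share of all genes called under this scaling was not counted, so the turn is not a result about the members.

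In the transgene lines the calls without a block were fewer. D395A XX cells had 1 member called higher and 2 lower (background 13.4% and 4.27%) and D395A XiO cells 1 higher and 0 lower (4.68% and 1.17%). No member was called in WT XX and WT XiO, where 0 genes were called in all and 0 members passed an unadjusted p under 0.05. With experiment as a block, D395A XX had 3 members higher (Pdzrn4, Cemip and Peg10) and 4 lower (Lgals3, Trpm1, Lrfn2 and Tll1), where 34.3% and 14.9% of all genes were called. Under the same block D395A XiO had 4 higher (those 3 and Lrfn2) and 3 lower (Lgals3, Trpm1 and Tll1), with a background of 37.7% and 12.4%, and WT XX and WT XiO again had 0 genes called. No member was called in ZFC3H1 (6.45% higher and 3.46% lower), where 1 passed unadjusted. The median gene itself shifted by 0.22 with dTAG in METTL3 cells, by 0.12 in D395A XiO and by 0.09 in D395A XX, and by less than that in the other lines.

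Pdzrn4 rose with dTAG in METTL3, YTHDC1 and both D395A lines. In METTL3 clones G4, H1, C3 and H5 it stood at 19.2, 20.8, 41.5 and 40 CPM untreated and at 82.5, 62.1, 95.6 and 74.2 CPM after dTAG, and the groups did not overlap. The rise averaged over both Dox states was 1.20 (SE 0.20, adjusted p = 0.00081), of which 0.94 remained (adjusted p = 0.0043) when libraries were scaled by median ratios. In D395A XX it went from 18.7 and 10.5 CPM to 73.0 and 61.8 CPM, and the averaged rise was 2.13 (SE 0.41, adjusted p = 0.0050). In WT XX, with 28.7 and 66.8 CPM untreated and 33.4 and 70.5 CPM after dTAG, the averaged change was 0.25 and the libraries overlapped.

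Whether the Pdzrn4 response to dTAG differed between D395A and WT depended on the block. The difference was 1.88 in the XX lines (SE 0.57, adjusted p = 0.11) and 1.12 in the XiO lines (SE 0.33, adjusted p = 0.24) without a block for experiment. With it, the adjusted p was 6.7e-07 in XX (SE 0.15) and 0.00038 in XiO (SE 0.16), where 28.2% and 28.7% of all genes were called. In YTHDC1 cells Pdzrn4 rose by 0.52 (SE 0.074) in experiment 1 and by 0.65 (SE 0.073) in experiment 2. Its change in ZCCHC8 cells was -0.07.

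Lgals3 fell with dTAG in METTL3 and D395A XX cells, and by less in ZCCHC8 cells. It changed there by -0.13 in clone Z4F and by -0.35 in clone Z12H, averaged over both Dox states. In METTL3 clones G4, H1, C3 and H5 it stood at 43.3, 103.9, 22.1 and 34.8 CPM untreated and 17.7, 34.1, 15.4 and 16.2 CPM after dTAG, with clone H1 highest in both groups. The averaged change was -0.88 (SE 0.15, adjusted p = 0.00081). In D395A XX it went from 25.5 and 23.2 CPM to 7.51 and 5.84 CPM, with an averaged change of -1.67 (SE 0.18, adjusted p = 0.00025). In WT XX it was 23.0 and 21.0 CPM untreated and 18.6 and 20.5 CPM after dTAG. The difference between D395A XX and WT XX was -1.64 (SE 0.26, adjusted p = 0.010), where 2.63% of all genes were called. In XiO cells it was -1.16 (SE 0.57, adjusted p = 0.58), and 0.0297% of genes were called. With experiment as a block the XiO difference had an adjusted p of 0.0085.

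Alk responded to dTAG in opposite directions in ZCCHC8 and YTHDC1 cells. Untreated levels overlapped, at 218.4 and 243.1 CPM in ZCCHC8 and 222.0 and 237.5 CPM in YTHDC1 experiment 1. After dTAG they were 176.8 and 179.0 CPM in ZCCHC8 and 374.4 and 369.2 CPM in YTHDC1 experiment 1. The averaged change was -0.59 (SE 0.041, adjusted p = 5.3e-09) in ZCCHC8 and 0.77 (SE 0.041, adjusted p = 1.8e-09) in YTHDC1 experiment 1, and 0.94 (SE 0.047, adjusted p = 1.1e-11) in YTHDC1 experiment 2. The difference of -1.37 between ZCCHC8 and YTHDC1 experiment 1 passed the test (adjusted p = 6.7e-11), as did those of 6 further members, where 43.9% of all genes were called.

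Peg10 rose with dTAG in METTL3 (0.63), ZCCHC8 (0.49) and both YTHDC1 experiments (0.73 and 0.63). Cemip rose in the same lines, by 0.88, 0.21, 0.47 and 0.45. Coch rose in METTL3 (0.32), ZCCHC8 (0.64) and YTHDC1 experiment 1 (0.32), but the METTL3 call was lost with median-ratio scaling, at 0.08 (adjusted p = 0.56). Lrfn2 rose in ZCCHC8 (0.34) and fell in YTHDC1 experiment 1 by 0.38 and in experiment 2 by 0.33. Trpm1 fell by 0.80 in METTL3, by 0.83 in D395A XX and by 0.30 in YTHDC1 experiment 2. Tll1 fell by 0.28 in YTHDC1 experiment 1, and in D395A XX its change was -1.15 with an adjusted p of 0.051, or 2.5e-08 with experiment as a block.

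**Figure D3:**
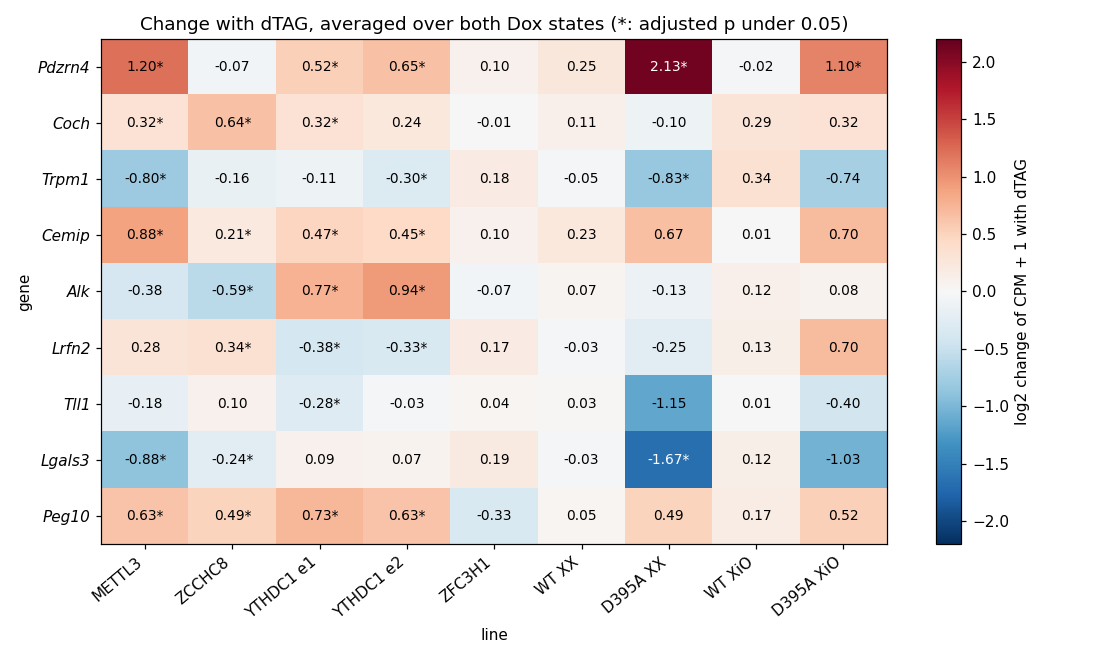
Log2 change with dTAG, averaged over both Dox states, as a colour map of the 9 members (rows) by the 9 lines (columns), red for higher and blue for lower, with the value in each cell and a star for an adjusted p under 0.05 in the fit without a block for experiment. Pdzrn4 is starred above 0 in METTL3 and both D395A lines (1.20, 2.13 and 1.10), and also in both YTHDC1 experiments. Lgals3 is starred below 0 in METTL3 and D395A XX (-0.88 and -1.67), and also in ZCCHC8. Alk is -0.59 in ZCCHC8 and 0.77 and 0.94 in YTHDC1.

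Genes related to the members moved in both directions. Of 66 genes listed from the same families, pathways or imprinted cluster, 63 were in the tables and 46 were tested in the mean of dTAG to dTAG+Dox. Of these, 7 fell and 9 rose, with a median of -0.01, beside 16.5% of all genes called lower and 20.1% called higher. Pleiotrophin (Ptn), a growth factor reported to bind Alk, fell by 0.55 (SE 0.045, adjusted p = 5.6e-08) and was lower in 20 of 20 pairs. Ptprz1, a receptor of the same factor, fell by 0.17.

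Among the hyaluronan genes, Tmem2, a cell-surface hyaluronidase, rose by 0.39, the synthase Has3 by 0.37 and Hyal1 by 0.27, and the receptor Cd44 fell by 0.23. Of the galectins, Lgals1 rose by 0.30, Lgals9 by 0.20 and Lgals12 by 0.19, and Lgals8 fell by 0.13. Trpm3 fell by 0.22 and Matn2, with a von Willebrand A domain as in cochlin, by 0.27. Lnx2, a relative of Pdzrn4, rose by 0.20. None of the Lrfn family or of the tolloid proteases and their substrates was called. In the imprinted cluster around Peg10, Ppp1r9a fell by 0.17, Pon3 rose by 0.26, Pdk4 rose by 0.14 and the other 6 tested genes were not called.

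The genes beside the members changed by less. Over the nearest gene of at least 1 CPM on each side of each member, 18 in all, the largest fall was 0.35 for Cntn1 (SE 0.069, adjusted p = 0.00094), which lies 54.8 kb before Pdzrn4. Ppp1r9a, Klf13, Abhd17c and Gxylt1 fell by 0.17, 0.14, 0.12 and 0.11, and Oard1, Cpe, Strn3 and Mapk1ip1l rose by 0.19, 0.15, 0.10 and 0.06. Sgce, which starts 0.101 kb from Peg10 on the opposite strand and is imprinted with it, changed by -0.00 (SE 0.036, adjusted p = 0.96).

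**Figure D4:**
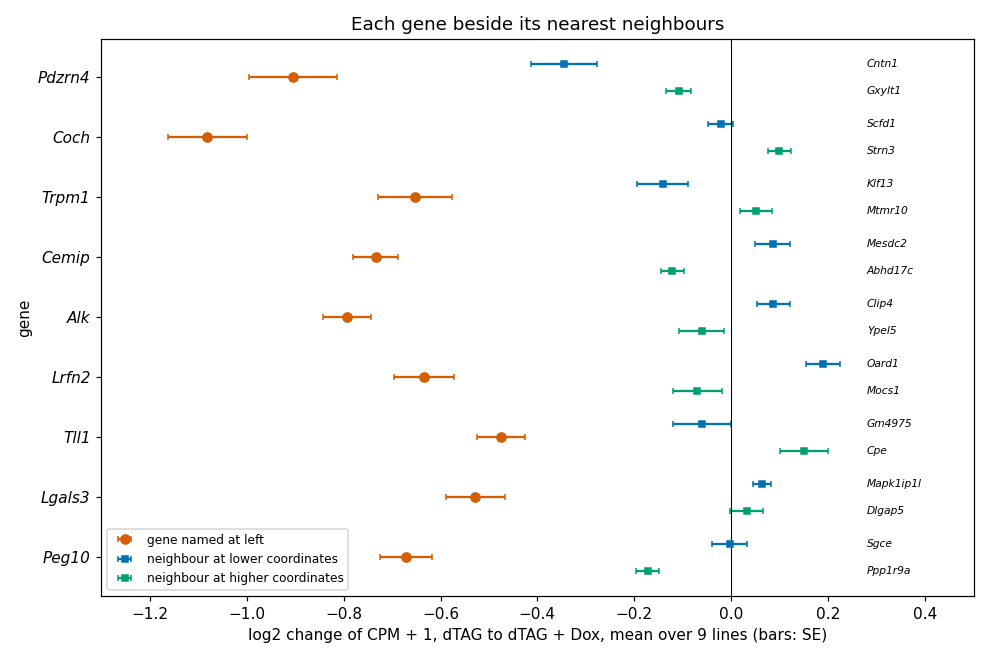
Log2 change from dTAG to dTAG+Dox, as the mean over 9 lines with its standard error, for each member (circles) and its nearest gene of at least 1 CPM on each side (squares). Each member lies below both of its neighbours, of which the lowest is Cntn1 at -0.35.

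Across the 80 libraries, with each level taken relative to the mean of its clone and experiment, the members followed the mean of the other 8 with r from 0.43 for Lgals3 to 0.86 for Coch. The autosomal genes most like the mean of the members were Inpp1 (r = 0.87), Ipmk (0.85), Shisa6 (0.83), Nlrp4g (0.82) and Fgf17 (0.81). These libraries include the untreated and Dox libraries whose falls chose the members, so a positive correlation among members follows from the choice. They also share treatments and were scaled to a common total. Inpp1, Ipmk, Shisa6 and Nlrp4g were also lower in all 20 untreated to Dox pairs.

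Checks of the samples bear on all members alike. Xist was higher with Dox in 20 of 20 pairs with and without dTAG, at 1383 CPM or more with Dox and 738.3 CPM or less without. Stem cell markers other than Sox2, which was listed at 0 in all 80 libraries, were present, and their sum ran from 893.3 to 2485 CPM in untreated libraries. From dTAG to dTAG+Dox that sum was lower in 9 of 20 pairs, with a median change of 0.03. Of 11 of these markers tested, 4 fell, namely Klf2 by 0.27, Prdm14 by 0.24, Fgf4 by 0.22 and Nanog by 0.10, and 2 rose, Zfp42 by 0.17 and Tbx3 by 0.12. The sum of 16 feeder fibroblast markers was lower in 18 of 20 pairs from dTAG to dTAG+Dox, with a median change of -0.19, and 5 of the 6 tested were called lower. Summed levels of this list ran from 60.3 to 116.1 CPM after dTAG and from 50.4 to 99.5 CPM after dTAG+Dox, and the defining collagens Col1a1 and Col3a1 had medians of 0.28 and 0.25 CPM, with 12 of 16 markers below a median of 1 CPM. The sum of 11 primitive endoderm markers was higher in 20 of 20 of these pairs, with a median change of 0.44, and ran from 157.3 to 602.4 CPM after dTAG and from 209.5 to 726.5 CPM after dTAG+Dox. Lama1, with a mean of 234.0 CPM, made up most of that sum and rose by 0.52, Dab2 rose by 0.37 and Col4a1 by 0.11, and Cubn fell by 0.35. The defining factors Gata6 and Gata4 changed by -0.02 and -0.02 and Pdgfra by -0.05, none of them called, and the median over the 7 tested was -0.02. The part of these cell types in the falls of the members was not tested.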

How the data were processed

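The deposited tables give CPM, counts of reads per gene scaled by the authors to the library total. Per the labels, the processing used Bowtie2, STAR, featureCounts, SAMtools, bedtools, deepTools and edgeR on mm10. The 6 tables were normalised separately. CPM steps gave whole reads for 100% of values within 0.05 reads, and 12 columns that matched no sample were not used. Table starts count from 0 and were raised by 1 (12332 of 21161 genes matched by symbol lay 1 below RefSeq).

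Groups came from the labels, and times from the titles. Tests were run in limma 3.58.1 (R 4.3.3) on log2(CPM + 1) for genes that averaged 1 CPM or more, with Benjamini-Hochberg adjustment over all genes and calls at an adjusted p under 0.05. The pseudocount understates changes of low genes. The mean over 9 lines was fitted on within-pair differences of the dTAG and dTAG+Dox libraries. Lines were fitted table by table on all libraries, with clone as a block in the degron lines. Clones are the same cell line in every treatment, and deviations of a clone from group means correlated with a mean r of 0.29 to 0.87. In the transgene lines the study states that conditions of a replicate were split from 1 batch of cells, and libraries of one experiment correlated with a mean r of 0.57 to 0.89. The planned fit there had no block, and values with experiment as a block are given beside it.

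Genes were named by rule: the 9 members, Xist, autosomal genes lower in all or in 19 of 20 Dox pairs, related genes called, nearest neighbours and the 5 most alike in profile. Members and lists were chosen with earlier results of these data known. The dTAG effect averaged over both Dox states, and its differences between lines, were added after the data were seen. Sequences were from RefSeq. Scripts were tested on simulated data. Alternatives were the pseudocount (0.25), the filter, median-ratio scaling, edgeR 4.0.16 on recovered reads, the block, the weighting of pairs, the libraries fitted, and leaving out pairs, clones, experiments or lines. Depth sets the precision of low genes, and only counting error is covered by it: the members' lowest read number in any library was 23. Tables of allelic ratios hold X-linked genes and were not used.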

Additional observations from a re-analysis of the deposited data

Results flagged for a closer look

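In METTL3 cells clone H1 stood apart from the other 3 clones for 2 members. Lgals3 after dTAG was at 34.1 CPM in H1, with the other clones between 15.4 and 17.7 CPM, and Peg10 without treatment was at 105.8 CPM in H1, with the others between 46.6 and 56.3 CPM. These were 2 of 36 groups tested, and chance flags about 1 group in 20. The fitted lines hold clone as a block, and both genes had a fall from dTAG to dTAG+Dox in H1 as in the other clones.

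The response to dTAG, averaged over both Dox states, differed between lines for 8 combinations of member and comparison. Lgals3 differed by -1.64 between D395A XX and WT XX. Between ZCCHC8 and YTHDC1 experiment 1, Alk differed by -1.37, Pdzrn4 by -0.59, Lgals3 by -0.33 and Peg10 by -0.23, while Lrfn2 differed by 0.72, Tll1 by 0.38 and Coch by 0.32. Each value passed limma's test of the difference itself, as did 2.63% of all genes in the first comparison and 43.9% in the second. The measure draws on the untreated and Dox libraries that chose the members, so these tests are not independent of the choice. With experiment as a block, Pdzrn4, Lgals3, Tll1, Cemip, Trpm1 and Peg10 differed between D395A and WT in XX. In XiO, Pdzrn4, Lgals3, Lrfn2, Cemip and Peg10 differed under the block. Of all genes, 28.2% passed in XX and 28.7% in XiO. The Pdzrn4 difference was 1.88 in XX and 1.12 in XiO.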

How the results depend on the processing

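All 9 members were called lower in the mean from dTAG to dTAG+Dox under all 35 alternatives run, leaving out each pair or line included (9 in each). Estimates ranged from -1.24 to -1.01 for Coch and from -0.54 to -0.43 for Tll1, and the highest adjusted p was 0.027, for Cemip. No value changed sign. Counts within single lines moved more, and the causes were not tested. Shares of all genes were counted only for the main fits and the block of experiment. The other counts describe how calls moved with the processing. Without the METTL3 line, 1 member (Alk, adjusted p = 8.2e-05) differed between lines, against 0 with it. The test of differences between lines was not kept for fits that left out any other line or a pair.

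For the fall per line, ZFC3H1 had 0 members called with all genes above 0 CPM, and 2 with the dTAG and dTAG+Dox libraries alone, where METTL3 had 1 and D395A XiO 1. D395A XX had 1 with median-ratio scaling and 1 with edgeR. With no replicate block of clone, METTL3 had 1, YTHDC1 experiment 2 had 0 and ZFC3H1 had 0. For the dTAG effect, METTL3 had 4 members lower with median-ratio scaling and 4 with edgeR (Alk and Tll1 gained under median ratios). With no replicate block, ZCCHC8 had 1 lower, YTHDC1 experiment 2 had 2 higher and 0 lower, and ZCCHC8 differed from YTHDC1 experiment 1 for 4 members, where Coch (adjusted p = 0.056), Lgals3 (0.19) and Peg10 (0.11) lost the call.

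In the transgene lines, with a replicate block of experiment, the fall was called for 6 members in WT XX and 8 in D395A XX (background 2.88% and 5.37%). It was called for 3 in WT XiO and 6 in D395A XiO (6.06% and 7.61%). The dTAG effect was then called higher for 3 and lower for 4 in D395A XX (34.3% and 14.9% of all genes). In D395A XiO it was called higher for 4 and lower for 3 (37.7% and 12.4%). D395A differed from WT for 6 members in XX and 5 in XiO under that block, as did 28.2% and 28.7% of all genes.

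Leaving out 1 clone or experiment gave 0 to 2 members called lower in METTL3, 7 in ZCCHC8, 7 in YTHDC1 experiment 1, and 0 in each transgene line. For the dTAG effect it gave 3 higher and 2 to 3 lower in METTL3, 2 to 3 higher and 1 to 2 lower in ZCCHC8, 3 to 4 higher and 0 lower in YTHDC1 experiment 1, and 0 in each transgene line, D395A XX and D395A XiO included. It was not run for YTHDC1 experiment 2 and ZFC3H1, where it leaves no residual degrees of freedom. Reads behind low genes limit what single lines can show: Coch had a median of 184 reads per library and Alk 4737.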

Other observations

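Beside the 9 members, 81 other autosomal genes were lower with Dox in all 20 untreated pairs, and 79 of them were called lower in the mean from dTAG to dTAG+Dox. A730082K24Rik (-0.73) and Mir466f-1 (-0.64) were among those with large mean falls in the choosing comparison, and from dTAG to dTAG+Dox they fell by 0.60 and 0.53.

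In the other direction, 78 autosomal genes were higher with Dox in all 20 untreated pairs. The 3 with the largest mean rises, named after their values were seen, were Rapgef4 (2.62), an exchange factor for Rap GTPases, Duox1 (2.29), an NADPH oxidase that makes hydrogen peroxide, and Cdh3 (1.43), P-cadherin. From dTAG to dTAG+Dox they rose by 2.53, 2.203 and 1.57 in the mean over 9 lines, and each was higher in 20 of 20 of those pairs.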
